A study of Homo sapiens with 4 samples.

Results

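The mouse collagen genes were taken as all mouse features whose symbol has the form Col, a number, a and a number. They were 44 of 32285 mouse features, and of 68886 features of both species. The data were 4 single-cell RNA libraries, 1 per treatment, from tumours of PANC-1, a human pancreatic ductal adenocarcinoma line, grown under the skin of nude mice. The groups were agrimoniin, a plant ellagitannin; erlotinib, an inhibitor of the EGFR kinase; the combination of agrimoniin and erlotinib; and control tumours. Nude mice lack mature T cells, and no source used here gives the doses, the treatment times, mouse ages or the number of tumours behind a library. The series' design text has the name cyranin where the sample labels have erlotinib, and the labels were followed.

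Collagen chains, most of them with a gene of their own, wind around each other into a helix. Fibrillar collagens form the cables of connective tissue, network collagens the sheets of basement membranes and short-chain lattices, and beaded collagen VI thin filaments between them. FACIT collagens sit on the surface of fibrils, and multiplexins lie at the border of basement membrane and stroma. In tumours, fibroblasts are known as the main source of fibrillar collagen.

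Every barcode held UMIs (counted molecules) of both species, so the mouse-gene UMIs of a barcode are called its mouse part, which need not be a single cell. There were 297, 305, 249 and 202 mouse parts in agrimoniin, erlotinib, combination and control, with 1338300, 1383630, 888914 and 1150462 mouse UMIs. Fibroblast-like parts had at least 1% of their mouse UMIs from Col1a1, Col1a2 and Col3a1 together. They numbered 104, 93, 93 and 87 in that order, or 35.0%, 30.5%, 37.3% and 43.1% of parts. In all 4 libraries, 27 parts lay between 1% and 2% and 10 parts between 0.5% and 1%. The lowest share inside the limit was 1.03% and the highest outside it was 0.934%, both in control. All 9 fibroblast markers that are not collagens, Dcn and Mmp2 among them, had UMIs in fibroblast-like parts of each library, at 7438, 6537, 5332 and 6636 counts per 1e6 mouse UMIs (CPM) in sum. In other parts they summed to 119.5, 73.8, 135 and 291 CPM, against 13288, 15471, 14339 and 12668 CPM for 8 macrophage markers.

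**Figure D1:**
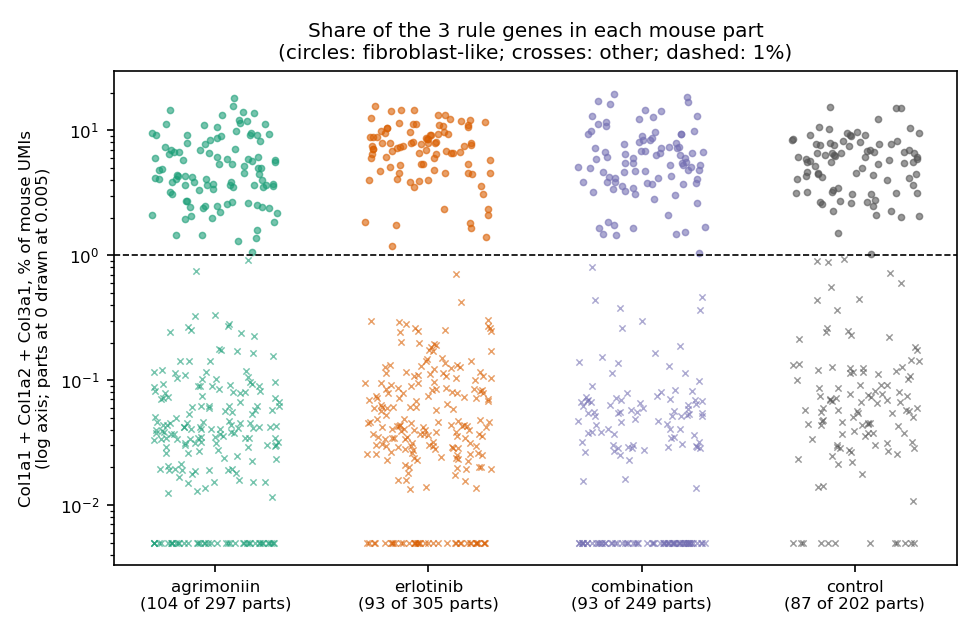
Percentage of mouse UMIs from Col1a1, Col1a2 and Col3a1 (log axis) in each mouse part, by library. Circles are fibroblast-like parts and crosses other parts, and the dashed line is the limit of 1%, near which few parts lie.

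With 1 library per treatment there is no replicate check and no test. Ratios are of CPM with exact 95% intervals, which cover counting error only, and each compares 2 libraries. The 3 comparisons with control share that library. In 3 prime counts a molecule gives 1 UMI whatever its length, so levels of different genes are numbers of molecules captured.

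Most collagen RNA lay in the fibroblast-like parts. They held 98.0%, 98.6%, 98.4% and 97.4% of collagen UMIs in agrimoniin, erlotinib, combination and control, but 45.0%, 42.2%, 48.2% and 54.1% of mouse UMIs. The rule genes Col1a1, Col1a2 and Col3a1 gave 91123, 36011 and 23007 of the 189845 collagen UMIs of all libraries. The rule itself therefore sets much of the share held by these parts, which is a description. Of the 44 genes, 25 had at least 20 UMIs in all, 13 had 1 to 19, and 6 had none. The 6 were Col2a1, Col4a6, Col6a4, Col9a1, Col9a2 and Col26a1. For these, 0 UMIs allow up to 4.98, 5.14, 7.01 and 4.82 CPM in fibroblast-like parts (3 counts). All 25 measured genes had a higher CPM in fibroblast-like than in other parts in all 4 libraries. The rule for the parts uses the same profiles, and 25.9% of all features did the same, so the count is a description.

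**Figure D2:**
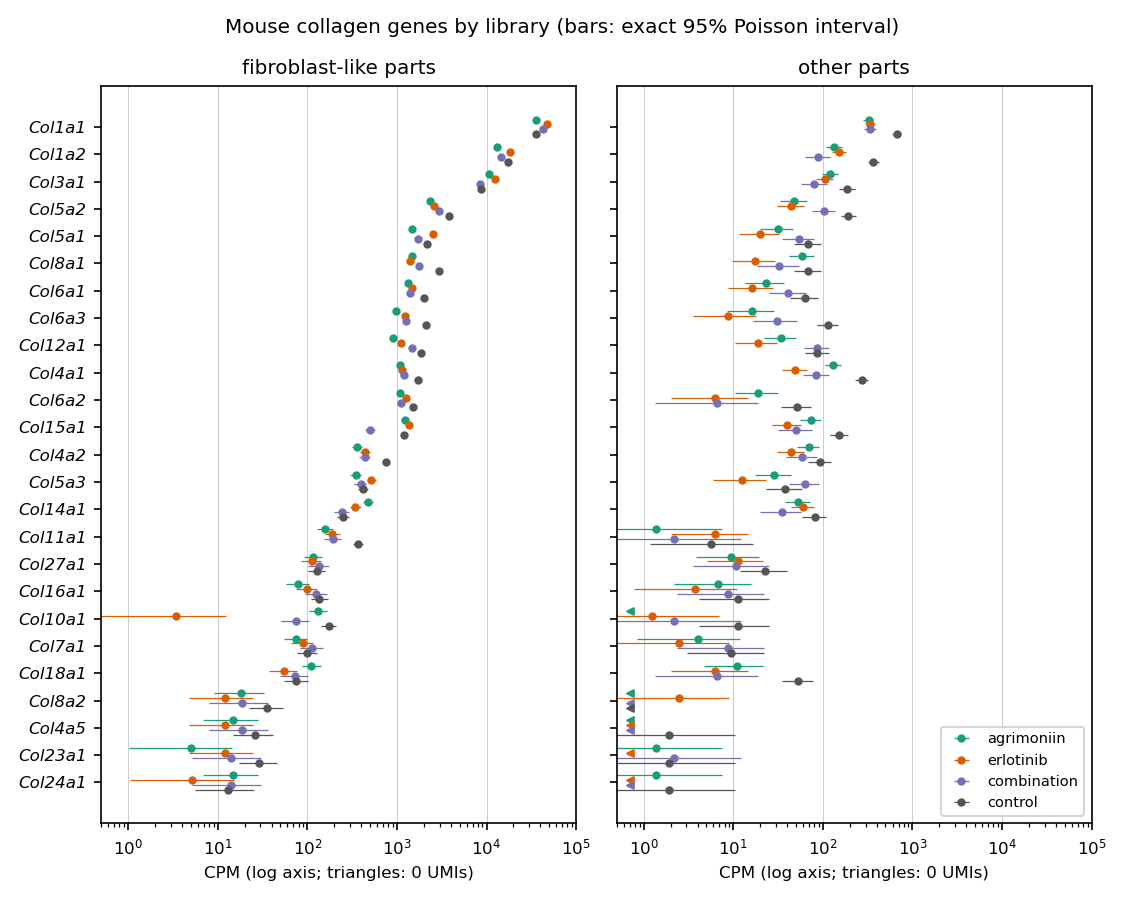
CPM (log axis) of the 25 measured collagen genes in fibroblast-like parts (left) and other parts (right), by library, with exact 95% Poisson intervals. Col1a1 leads in both kinds of part, at levels far lower in other parts, where the rule itself holds it low.

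The fibrillar genes made up 87.3%, 89.3%, 87.9% and 82.1% of collagen UMIs in fibroblast-like parts of agrimoniin, erlotinib, combination and control. Col1a1 (ENSMUSG00000001506), which encodes the more numerous chain of collagen I, had 36048, 47101 and 43038 CPM in the treated libraries and 36134 CPM in control. Col1a2, its partner chain, had 13068, 18515 and 14425 CPM, against 17203 CPM in control. Col3a1, the collagen III chain of soft tissues, had 10625, 12379 and 8525 CPM, against 8716 CPM in control. Erlotinib was the highest library for all 3 genes, which are also the genes of the rule.

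The balance of the collagen I chains differed between libraries. Agrimoniin had 2.76 Col1a1 UMIs per Col1a2 UMI (2.69 to 2.83). Erlotinib had 2.54 (2.49 to 2.60), the combination 2.98 (2.90 to 3.07) and control 2.10 (2.05 to 2.15). Over all fibroblast-like parts, the 3 treated libraries were thus above control. Human COL1A1 was at 6325, 6204, 6229 and 6172 CPM of human UMIs in the same barcodes. Per 1000 mouse UMIs there were 13.6, 12.6 and 16.8 human COL1A1 UMIs in the treated libraries and 10.5 in control. The median human share of these barcodes was 68.6%, 66.9% and 75.5%, against 62.6% in control. Both values put the libraries in the same order as the mouse Col1a1 to Col1a2 ratio, with the combination highest and control lowest. Human COL1A2 had at most 6 UMIs there in any library. Whether human reads add to mouse Col1a1 was not tested.

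The minor fibrillar genes differed in which library was highest, erlotinib for Col5a1 and Col5a3 and control for Col5a2 and Col11a1. Col5a2, a chain of collagen V, which sets the width of fibrils, had 2320, 2610 and 2950 CPM in agrimoniin, erlotinib and combination, against 3850 CPM in control. Col5a1, its partner, had 1491, 2499 and 1740 CPM, against 2164 CPM in control. Col5a3, the least common chain of collagen V, had 347, 516 and 392 CPM, against 419.6 CPM in control. There were 0.957 Col5a1 UMIs per Col5a2 UMI in erlotinib (0.890 to 1.03), against 0.562 in control (0.525 to 0.601). Col11a1, the related chain of cartilage and of tumour stroma, had 158, 190 and 192 CPM, against 370 CPM in control.

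Outside the 3 rule genes, collagen RNA was lower in each treated library than in control. The other 41 genes summed to 13817, 15996 and 15285 CPM in agrimoniin, erlotinib and combination, against 21968 CPM in control. The ratios to control were 0.629 (0.612 to 0.646), then 0.728 (0.709 to 0.748), then 0.696 (0.675 to 0.717). The rule genes had ratios of 0.963, 1.26 and 1.06, and the sum of all collagen genes 0.875, 1.12 and 0.967. The direction of the last of these, for the combination, turned under other settings given in the closing section.

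Counted by gene, 11 of 25 measured collagen genes in agrimoniin were at least 1.5-fold apart from control, where 22.0% of all measured features were. Of these, 10 were lower, where 10.0% of features were, and Col14a1 was higher. In erlotinib 10 of 24 were apart, where 22.6% of features were, and all 10 were lower, where 10.5% were. In combination 8 of 25 were apart, where 21.8% of features were, and all 8 were lower, where 11.0% were. The median log2 ratios of the collagen genes were -0.52, -0.44 and -0.32, against -0.01, -0.01 and -0.03 over all features. A gene was measured at a mean of 10 CPM, and a log2 ratio had 10 CPM added to both values, which understates changes of low genes. At a mean of 100 CPM, a limit chosen after the values were seen, 8 of 19, 6 of 18 and 6 of 20 were lower, where 8.64%, 9.56% and 7.02% of features were, and 1, 0 and 0 were higher, where 10.3%, 8.13% and 9.02% were. The lower genes shared by all 3 comparisons were Col6a3, Col11a1, Col8a1, Col8a2, Col4a2 and Col23a1. Col8a2 and Col23a1 rest on 3 to 22 UMIs per library.

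**Figure D3:**
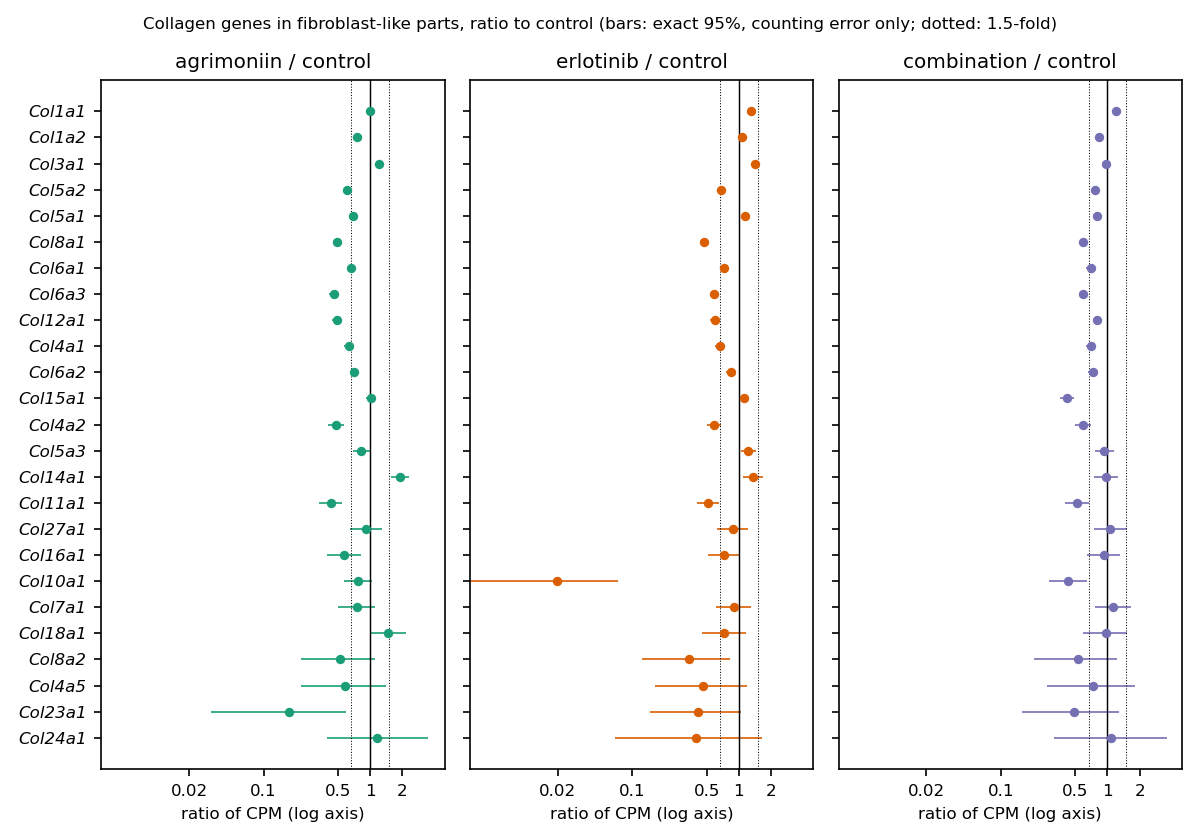
Ratio of CPM in fibroblast-like parts to control (log axis) for the 25 most abundant collagen genes, in agrimoniin, erlotinib and combination, with exact 95% intervals. Col8a1, Col6a3, Col4a2 and Col11a1 lie left of the 1.5-fold line in all 3 panels, and Col15a1 in the combination panel.

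Among network collagens, Col8a1 (ENSMUSG00000068196), a short-chain collagen of vessel walls, had 1458, 1404 and 1768 CPM in agrimoniin, erlotinib and combination, against 2974 CPM in control. Its ratios were 0.490 (0.452 to 0.532), 0.472 (0.434 to 0.513) and 0.594 (0.546 to 0.647). Col4a1 and Col4a2 encode the common pair of basement membrane chains. Col4a2 had 359, 440 and 439 CPM, against 747 CPM in control, and Col4a1 had 1088, 1141 and 1196 CPM, against 1720 CPM in control. Both were lower in the 3 treated libraries, and only Col4a2 was past 1.5-fold in all of them.

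Col10a1 (ENSMUSG00000039462), known from growing cartilage, was uneven across parts. It had 80, 2 and 32 UMIs in agrimoniin, erlotinib and combination, against 108 in control. These came from 10, 1 and 3 parts, against 11 in control, and a single part gave 65.6% of the combination's UMIs and 38.0% of control's. Its level therefore rests on few parts in every library.

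The beaded genes Col6a1, Col6a2 and Col6a3, whose chains assemble into collagen VI, were lower too. Summed over all beaded genes, agrimoniin had a ratio to control of 0.602 (0.570 to 0.636). Erlotinib had a ratio of 0.701 (0.665 to 0.739), and the combination one of 0.666 (0.628 to 0.707). Col6a3, the longest of these chains, stood out with 970, 1240 and 1259 CPM, against 2127 CPM in control. There were 0.724, 0.852 and 0.901 Col6a3 UMIs per Col6a1 UMI in the treated libraries, against 1.06 in control.

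Among FACIT genes, Col12a1, found in dense connective tissue and under strain, had 907, 1108 and 1490 CPM, against 1865 CPM in control. The combination was nearest to control, with a ratio of 0.799 (0.724 to 0.881). Col14a1 (ENSMUSG00000022371), a FACIT gene of differentiated connective tissue, was the only one at least 1.5-fold higher than control. Its levels were 477 CPM for agrimoniin, 343 CPM for erlotinib and 243 CPM for the combination, against 251 CPM in control, and its ratio in agrimoniin was 1.90 (1.56 to 2.32).

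Col15a1 (ENSMUSG00000028339), a multiplexin of basement membrane zones, set the combination apart. It had 505 CPM in combination, against 1226 in agrimoniin, 1358 in erlotinib and 1212 in control. The combination ratios were 0.412 (0.352 to 0.480) against agrimoniin, 0.372 (0.318 to 0.432) against erlotinib and 0.416 (0.356 to 0.485) against control. Col15a1 was found in 35 of 93 parts in combination, against 65 of 104 in agrimoniin, 73 of 93 in erlotinib and 64 of 87 in control. No part gave over 12.5% of its UMIs in any library. Against agrimoniin, 2 of 24 measured genes were higher in the combination and 3 lower, where 8.68% and 10.6% of features were. Against erlotinib, 1 of 24 was higher and 1 lower, where 11.3% and 11.2% of features were.

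The fibroblast-like parts were not of 1 kind, and their mix differed between libraries. A part was called myofibroblast-leaning if it had more UMIs of 7 myofibroblast markers than of 7 universal or inflammatory fibroblast markers, and otherwise universal-leaning. This split was chosen after values were seen, and 37 of 377 parts lay within 5 UMIs of it. Myofibroblast-leaning parts were 71.2%, 84.9% and 80.6% of fibroblast-like parts in agrimoniin, erlotinib and combination, against 92.0% in control. In fibroblast-like parts the myofibroblast list summed to 5446, 6597 and 7869 CPM, against 10218 CPM in control, and the universal list to 2247, 1538 and 1035 CPM, against 453 CPM in control. Macrophage markers summed to 414, 712 and 278 CPM there, against 99.7 CPM in control.

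The collagen genes differed between the leanings. Of 26 measured genes, 17 were higher in myofibroblast-leaning parts in all 4 libraries, where 17.7% of features were, and 2 were lower, where 8.02% of features were. A gene was measured here at a mean of 10 CPM in either leaning. Among the 17, Col7a1, Col8a2, Col10a1 and Col23a1 had 0 or 1 UMI per library in universal-leaning parts. They passed the limit through myofibroblast-leaning parts alone. Other ratios were near 1, such as Col4a1 in erlotinib at 1.03 (0.840 to 1.28) and Col16a1 in control at 1.10 (0.412 to 4.12). The count is therefore a description. Col8a1 had 2016, 1666, 2111 and 3125 CPM in myofibroblast-leaning parts of agrimoniin, erlotinib, combination and control, against 124, 112, 42.3 and 188 CPM in universal-leaning parts. The lower genes were Col3a1 and Col14a1. Col3a1 had 8108, 9449, 7647 and 7890 CPM in myofibroblast-leaning parts, against 16643, 26872, 12945 and 23984 CPM in universal-leaning parts. The universal-leaning parts of control numbered only 7. In universal-leaning parts there were 2.49, 1.90 and 3.39 Col1a1 UMIs per Col1a2 UMI in agrimoniin, erlotinib and combination, against 2.02 in control. Erlotinib (1.80 to 2.01) was thus not above control (1.82 to 2.23) there.

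**Figure D4:**
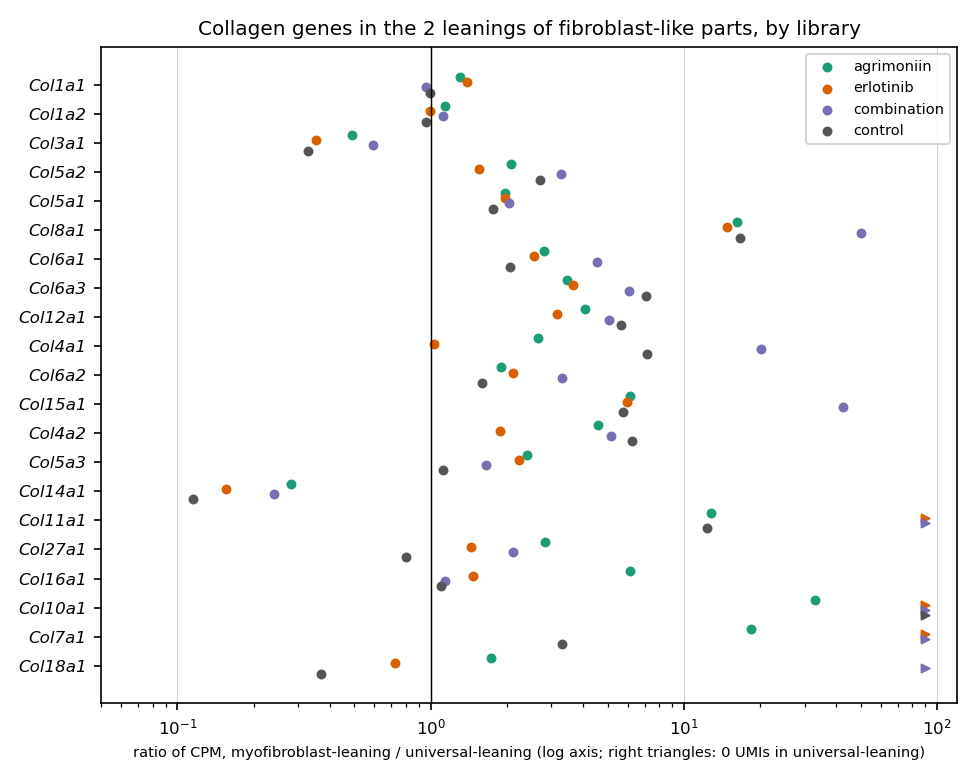
Ratio of CPM in myofibroblast-leaning to universal-leaning parts (log axis) for collagen genes with at least 150 UMIs, by library. Col8a1 lies to the right of 1 and Col3a1 and Col14a1 to the left in all 4 libraries, and right triangles mark genes with 0 UMIs in universal-leaning parts.

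Within myofibroblast-leaning parts alone, the treated libraries still had lower genes, but fewer. Agrimoniin had 1 of 25 higher than control, Col18a1, and 7 lower, where 11.9% and 9.62% of features were. Erlotinib had 0 of 24 higher and 9 lower, where 12.2% and 11.1% of features were. The combination had 0 of 25 higher and 6 lower, where 11.3% and 10.6% of features were. The sums outside the rule genes had ratios of 0.744, 0.771 and 0.767. Col6a3, Col11a1, Col4a2 and Col23a1 stayed past 1.5-fold in all 3, with Col23a1 on 3, 6, 6 and 18 UMIs in agrimoniin, erlotinib, combination and control. For Col14a1 in agrimoniin the log2 ratio was 0.57 here, against 0.90 over all fibroblast-like parts, and Col8a1 in combination was at -0.56, against -0.75. Col15a1 in combination was at 602 CPM, against 1266 CPM in control. How much the mix of parts contributes to the remaining differences was not tested.

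Other genes of collagen handling were measured in fibroblast-like parts, where 22.0%, 22.6% and 21.8% of all features were at least 1.5-fold apart from control in agrimoniin, erlotinib and combination, and 10.0%, 10.5% and 11.0% were lower. These genes were compared over all fibroblast-like parts only, and how much the mix of parts contributes was not tested. Of 16 measured folding and modification genes, 5 were apart in agrimoniin, 4 of them lower. In erlotinib 1 was apart, and in combination 3, all lower. Plod3, a lysyl hydroxylase gene, had 147 CPM in erlotinib, against 54.7 CPM in control. Of the secreted processing and cross-linking genes, 6 of 11 were apart in agrimoniin, 4 of them lower, and 4 of 11 in erlotinib, 2 of them lower. In combination 1 of 10 was apart, and lower. Pcolce2 and Tgm2 were the higher genes in both agrimoniin and erlotinib. Lox, which encodes an oxidase that starts cross-links, was lower in each treated library. Lox had 1338 CPM in combination, against 2246 CPM in control.

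Fibril-associated genes split. In agrimoniin 8 of 14 were apart, 5 of them lower. In erlotinib 6 were apart, 3 of them lower, and in combination 4, 2 of them lower, which is near the share over all features. Tnxb, a tenascin of loose connective tissue, had 153, 63.4 and 63.1 CPM in agrimoniin, erlotinib and combination, against 19.3 CPM in control. Thbs2, which encodes a matrix regulator of fibrils, had 551 CPM in erlotinib, against 1571 CPM in control. Of 11 degradation and uptake genes, 2 were apart in agrimoniin and 3 in erlotinib, near the share over all features, and 7 in combination, 4 of them lower. Mmp3, stromelysin 1, had 252, 276 and 236 CPM in agrimoniin, erlotinib and combination, against 22.5 CPM in control, from 14 UMIs. Of collagen receptor genes, 1 of 5 was apart in agrimoniin, 5 of 7 in erlotinib, 3 of them lower, and 0 of 5 in combination. The 2 higher in erlotinib were Itga10 and Lair1. Whether macrophage RNA, also higher in these parts of erlotinib than of control, adds to Lair1 was not tested. Itgb1, the shared beta chain of collagen-binding integrins, had 809, 808 and 1250 CPM, against 1709 CPM in control. Of 12 TGF-beta genes, 4, 3 and 4 were apart in agrimoniin, erlotinib and combination, with 1, 2 and 2 of them lower. Ltbp2, a latent TGF-beta binding protein gene, was lower in each, at 59.8, 39.4 and 60.7 CPM, against 117 CPM in control.

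In other parts collagen levels were low and were highest in control. Col1a1 had 323, 335 and 336 CPM in agrimoniin, erlotinib and combination, against 664 CPM in control. Of the measured genes, 13 of 17, 16 of 17 and 12 of 18 were at least 1.5-fold lower than control, where 8.97%, 9.49% and 11.8% of features were. Higher were 0, 0 and 1 gene, Col5a3, where 6.78%, 7.44% and 9.30% of features were. Beside this, the fibroblast markers in other parts were at 119.5, 73.8 and 135 CPM, against 291 CPM in control. Control also had 6 parts between 0.5% and 1% of rule genes, where agrimoniin had 2, and erlotinib and combination 1 each. Their part in the difference was not tested.

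Basement membrane genes were found in other kinds of part. Other parts with at least 10 UMIs of 8 endothelial markers, a limit set after values were seen, numbered 6, 1, 2 and 4 in agrimoniin, erlotinib, combination and control. Of these 13 parts, 4 had 10 to 14 such UMIs, and 7 more parts had 5 to 9. Further other parts with at least 10 UMIs of 7 pericyte or smooth muscle markers numbered 1, 0, 1 and 3. Both kinds were left out of the remaining other parts, which numbered 186, 211, 153 and 108. Col4a1 had 2505, 852, 1552 and 2496 CPM in endothelial-marker parts, against 45.3, 42.8, 52.9 and 64.6 CPM in the remaining other parts. In the pericyte-marker parts of control it had 4564 CPM, from 67 UMIs of which 68.7% came from 1 part, and Col4a2 had 1499 CPM. In those of agrimoniin and combination Col4a1 had 1 and 6 UMIs. Of 18 measured collagen genes, 3 were higher in endothelial-marker than in remaining other parts in all 4 libraries, Col4a1, Col4a2 and Col18a1, where 3.43% of features were. Col18a1, the source of endostatin, rests on 2, 2, 1 and 12 UMIs in them, and its interval reached below 1 in agrimoniin and combination. It passed the limit of 10 CPM only through these parts, with 8.49, 3.78, 4.41 and 4.03 CPM in the remaining other parts. To be counted, a feature needed a UMI in the few endothelial-marker parts of each library, so the count of 3 is a description. Col15a1 had 808, 1380 and 1719 CPM in endothelial-marker parts of agrimoniin, combination and control. In the remaining other parts of these libraries it had 48.1, 30.9 and 62.5 CPM. It was not among the 3 because the 1 endothelial-marker part of erlotinib had 0 UMIs of it. With 24751, 5867, 5798 and 18030 mouse UMIs in these parts, 0 UMIs of other collagen genes do not show a lower level.

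The lower levels in other parts rest in part on these few parts. In the remaining other parts 9 of 16, 11 of 16 and 10 of 17 collagen genes were at least 1.5-fold lower than control, where 9.03%, 8.29% and 11.4% of features were. Higher were 0, 0 and 1, again Col5a3, where 7.06%, 7.75% and 10.1% were. Col1a1 was at 314, 336 and 335 CPM, against 583 CPM in control, and the fibroblast markers at 113, 69.3 and 119 CPM, against 209.8 CPM in control. Col4a1 no longer passed 1.5-fold on the log2 scale with 10 CPM added, and Col4a2 turned direction, with 29.7, 36.5 and 37.5 CPM, against 22.2 CPM in control. These Col4a2 levels rest on only 21, 29 and 17 UMIs, against 11 in control. Col18a1 had 6, 3 and 2 UMIs, against 2 in control.

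**Figure D5:**
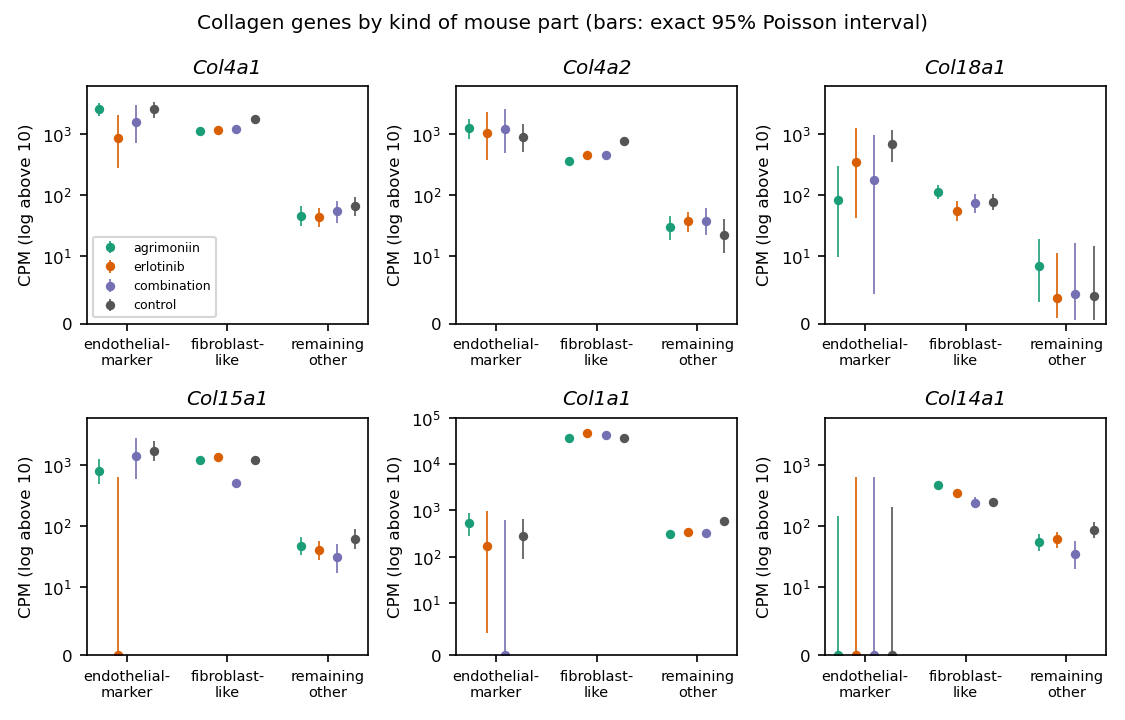
CPM (log axis above 10) of 6 collagen genes in endothelial-marker, fibroblast-like and remaining other parts, by library, with exact 95% Poisson intervals. Col4a1 and Col4a2 are as high in endothelial-marker parts as in fibroblast-like parts or higher, except Col4a1 in erlotinib. Col1a1, a rule gene, is held low in endothelial-marker and remaining other parts by the rule itself. Pericyte-marker parts are not drawn.

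In the remaining other parts, Col14a1 was at 11.6% to 34.6% of its fibroblast-like level over the 4 libraries. Its 146 UMIs there came from 25, 33, 13 and 23 parts in agrimoniin, erlotinib, combination and control. Other genes outside the rule also kept a share of their level. Col27a1, a minor fibrillar gene, was at 8.14% to 17.5%, and Col12a1, a FACIT gene like Col14a1, at 1.71% to 5.92%. Col5a3 was at 16.3% in combination, above the 14.5% of Col14a1 in that library. The rule genes are held low in these parts by the rule itself, so these shares were not set against those of the rule genes.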

How the data were processed

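The labels' protocols describe digestion of the tumours with collagenase II and a Chromium 3 prime kit. Barcodes had 27 bases, which is not the layout of that kit. The submitters' processing notes name Cell Ranger, with no version, and the builds hg38 and mm10. The authors deposited raw UMI counts per gene and barcode. The members and gene lists were chosen with earlier results of these data known.

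Mouse parts under 500 UMIs, under 250 genes or above 25% mitochondrial UMIs were dropped. Total UMIs per library were 5133188, 5301915, 4050572 and 3656549 in agrimoniin, erlotinib, combination and control, and no barcode was shared. No doublet caller was run. UMIs were summed per library and kind of part and scaled to 1e6 mouse UMIs, with exact intervals (scipy 1.17.1, numpy 2.4.6, pandas 2.3.3). The genes named were the 12 most abundant, the top of each class, the 5 highest and 5 lowest ratios per comparison and the 3 largest changes per pathway list; others were chosen after their values were seen. Alternatives changed the rule for parts, filters, scaling and pseudocount. The calculation was tested on simulated data, where genes near the 10 CPM minimum crossed or missed 1.5-fold by counting error alone.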

Additional observations from a re-analysis of the deposited data

Results flagged for a closer look

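Some collagen genes differed in opposite directions, by at least 1.5-fold each way, when a drug was set against its partner library with and without the other drug. These differences were not tested, and each rests on 4 single libraries. In other parts, some of the 13 collagen genes lower in agrimoniin than in control were higher in combination than in erlotinib. The rest were not, and Col1a2 was lower in both comparisons. The log2 ratios of combination to erlotinib were 1.75 for Col12a1, 1.11 for Col6a3, 1.10 for Col5a1, 1.06 for Col5a2, 0.96 for Col6a1 and 0.69 for Col4a1. The same values of the 4 libraries can be set the other way, which is not a further observation. Some of the 16 collagen genes lower in erlotinib than in control in other parts were higher in combination than in agrimoniin. The rest were not, and Col6a2 and Col8a1 were lower in both comparisons. The log2 ratios of combination to agrimoniin were 1.14 for Col12a1, 0.96 for Col5a2, 0.92 for Col5a3, 0.64 for Col5a1, 0.63 for Col6a1 and 0.62 for Col6a3. The genes given with log2 ratios here had 7 to 102 UMIs per library in other parts, apart from Col4a1 with up to 144. The share of all features that met the condition is not given here. Without the endothelial-marker and pericyte-marker parts, Col4a1 in combination was at a log2 ratio of 0.25 to erlotinib and no longer met the condition. In fibroblast-like parts, Col12a1 met the same condition, with a log2 ratio of 0.71 for combination to agrimoniin.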

How the results depend on the processing

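The sum of all collagen genes in fibroblast-like parts of the combination, 0.967 of control, was 1.00 and 1.02 with the limit for such parts at 0.5% and 2%, 1.02 with parts chosen by non-collagen markers, 1.00 as a mean over parts, 0.954 at 3000 UMIs, 0.953 at 10% mitochondrial UMIs and 0.984 in myofibroblast-leaning parts. Its direction is thus not settled, and the cause was not tested. The agrimoniin sum, 0.875, was 0.908, 0.904 and 0.914 under the first 3 settings, 0.901 at 75% human UMIs, 0.863 without the part richest in collagen and 0.921 in myofibroblast-leaning parts. The erlotinib sum, 1.12, was 1.16, 1.14 and 1.18 under the first 3, 1.11 at 10% mitochondrial UMIs and 1.14 at 75% human UMIs.

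The sums outside the rule genes and the myofibroblast-leaning setting were chosen after values were seen. Outside the rule genes, agrimoniin was 0.647 (2%), 0.650 (non-collagen markers), 0.647 (75% human), 0.612 (without the richest part) and 0.744 (myofibroblast-leaning), erlotinib 0.749 (0.5%), 0.760 (non-collagen markers) and 0.771 (myofibroblast-leaning), and combination 0.733 (non-collagen markers), 0.721 (mean over parts) and 0.767 (myofibroblast-leaning).

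Over all mouse parts the sums were 0.724, 0.863 and 0.853 of control in agrimoniin, erlotinib and combination. Agrimoniin was 0.714 scaled to non-collagen UMIs. As a mean over parts agrimoniin was 0.708 and erlotinib 0.780. At 3000 UMIs they were 0.780, 0.910 and 0.963, at 10% mitochondrial UMIs 0.707, 0.828 and 0.812, and at 75% human UMIs 0.796, 1.02 and 0.964, where erlotinib turned direction.

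Counts of genes at least 1.5-fold apart stayed within 1.5 times under the planned settings. At 100 CPM, erlotinib had 6 lower genes, against 10. In other parts, 13, 16 and 12 lower genes became 9, 11 and 10 without endothelial-marker and pericyte-marker parts, a setting chosen after values were seen. Of 29 single-gene ratios past 1.5-fold, all kept their direction in 319 alternatives, and 10 dropped under 1.5-fold in 17 of them. No paired analysis was possible because each treatment has 1 library and the labels give no shared replicate numbers.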
